A study of Mus musculus with 12 samples.

Results

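The 45 genes described here encode parts of the lysosome: cathepsins and other processing enzymes of its lumen, glycosidases, lumenal proteins that handle lipids, membrane proteins, the transcription factor TFEB, and subunits of the vacuolar proton pump (V-ATPase). The list was given by name, with no measured value in its rule, and a probe set counted as a member when the platform annotation named exactly 1 gene and that gene was on the list. Of the 45 genes, 43 had such a probe set, and Cd63 and Atp6v0c had none. They account for 95 of the 45037 probe sets of the arrays and for 43 of the 18193 genes that a probe set names alone. Each gene is given by 1 probe set, the one with the highest mean signal. Ctsf, which encodes cathepsin F, stayed below the limit for testing on its mean signal (range of its signals 5.7 to 61), so 42 genes and 90 probe sets were tested.

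Lysosomes digest what a cell takes up or recycles, in a lumen that the V-ATPase keeps acid. The pump has a catalytic sector (V1), which splits ATP in the cytosol, and a membrane sector (V0), through which protons pass, and the low pH activates the cathepsins and glycosidases. In dendritic cells the same compartment trims antigens and the invariant chain for loading onto MHC class II, and maturation is known to go with its acidification. TFEB and its relatives of the MiT family bind the CLEAR element, found before many lysosomal genes, and raise their transcription.

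Dendritic cells were grown from femur and tibia marrow of C57BL/6 mice for 6 days with GM-CSF at 10 ng/ml and, by the study's methods, selected for CD11c. They then received poly(I:C), a man-made mimic of viral double-stranded RNA, at 2.5 µg/ml, and were taken 1, 3, 6, 12 and 24 h later, while cells at 0 h served as the start of the course. In each of 2 experiments every time was measured on 1 Affymetrix mouse genome array, 12 arrays in all. The cells of an experiment came from a single mouse, so n = 2 at every time, and precision is limited by that number. The labels give the age of the mice as 3 to 4 months in one field and as 8 to 10 weeks in another, and the study's methods give higher doses of both agents than the labels do. All groups share the strain and the growth factor. No array after 0 h held cells kept without poly(I:C), so an effect of poly(I:C) and one of time in culture cannot be told apart. Whole cultures were measured, so fewer cells of a type and less RNA per cell cannot be told apart either.

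Each array was scaled to a trimmed mean of 500, its median signal was between 70.9 and 91.4, and signals of the same time correlated between the experiments at r = 0.909 to 0.954 (over probe sets, and so not over independent replicates). For dendritic cells 8 markers were listed, all with a probe set, and 7 of them passed the limit for testing. None was below a signal of 16 on every array. The same held for the markers of the other cell types given below, so that limit cannot tell the types apart. Itgax, which encodes CD11c, had signals of 16176 and 22648 at 24 h against 18780 and 18932 at 0 h in experiments 1 and 2. The summed signal of the dendritic cell markers in experiments 1 and 2 was 89053 and 84661 at 12 h and 80125 and 88730 at 24 h, against sums of 63814 and 53711 at 0 h. Macrophage markers (8 of 9 with a probe set) summed to 56554 and 45430 at 12 h and to 47131 and 40805 at 24 h, against 37156 and 34936 at the start. Of the 7 macrophage markers tested, 2 were higher (Fcgr1 and Mertk) and 2 lower (C1qa and C1qb) at 24 h than at 0 h. Of the 7 dendritic cell markers tested, 2 were higher and 0 lower at 24 h, and the same numbers were at 12 h. Among all genes tested 11.5% were higher and 17.2% lower at 24 h, and 10.7% and 20.6% at 12 h. Osteoclast markers summed to 27450 and 17365 at 24 h against 23527 and 20925 at 0 h, neutrophil markers to between 1737 and 3739 over the 12 arrays, and the 4 markers of T and B cells with a probe set to between 61.8 and 155. Both the macrophage and the dendritic cell sums were higher at 12 and 24 h than at 0 h, but sums follow the brightest markers. The median log2 fold change of the 7 macrophage markers tested was -0.28 at 12 h, with 4 of them below 0, and 0.04 at 24 h, and that of the 7 dendritic cell markers tested was 0.35 at both times. Their part in the changes of the lysosomal genes was not tested.

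Most calls for lysosomal transcripts came late and were upward, though their number depended on the scaling of the arrays. Calls against 0 h were made with limma, with time and experiment as terms, where p adjusted over all 22519 probe sets tested was under 0.05. At 1 h none of the 42 genes was called in either direction, where 0.0819% of all 10985 genes tested were called higher and 0% lower. The members' values lay between -0.21 and 0.38 on the log2 scale, and 1 of them was higher and 0 lower at an unadjusted p under 0.05, where 1.17% and 0.665% of all genes were. At 3 h again none was called, against 1.26% of all genes higher and 0.0546% lower, and at an unadjusted p under 0.05 the counts were 0 higher and 1 lower, where 4.70% and 3.18% of all genes were. At 6 h Clcn7 and Npc2 were higher and none was lower, against 4.29% and 2.32% of all genes. At 12 h 16 members were higher and 2 lower, against 10.7% and 20.6% of all genes. At 24 h 19 were higher and 2 lower, against 11.5% and 17.2% of all genes. Over the whole course 20 members were higher at 1 or more times, 2 were lower (Gusb and Atp6v0a1), none was called in both directions and 20 were called at no time. The share of all genes called at 1 or more times was not counted, so these numbers have no background beside them.

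The median log2 fold change of the 42 members was 0.06, -0.02, 0.08, 0.32 and 0.43 at 1, 3, 6, 12 and 24 h, against -0.02, -0.06, -0.15, -0.20 and -0.13 over all genes tested. The experiments moved the same way for 31 of the 42 members at 12 h and for 34 at 24 h, the called genes included. These counts rest in part on the 0 h array of experiment 2: without it, 5 members were higher at 12 h and 7 at 24 h. When that of experiment 1 was left out instead, 10 and 11 were. Leaving out the 12 h array of experiment 2 left 7 higher at 12 h. With no term for the experiment, the pairing within a mouse is lost and 6 were higher at 12 h and 4 at 24 h.

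Many of these probe sets are bright, and brightness and scaling moved with the counts. Of the 42 members, 30 had a mean signal of at least 5000, a limit set after the values were seen. In that range 15 of 30 members were higher at 12 h and 16 of 30 at 24 h, against 30.3% and 29.0% of the 1003 genes as bright. After quantile normalization, which gives every array the same distribution, 5 of these 30 members (16.7%) were higher at 12 h and 6 (20.0%) at 24 h. Of the bright genes 19.3% and 20.0% were, so the members' share called higher was at or below that of genes as bright. Lower after that normalization were 3 of the 30 at 12 h and 1 at 24 h, against 19.5% and 22.7% of the bright genes. The median log2 fold changes of the 30 were then 0.05 and 0.11, against -0.08 and -0.07 over the bright genes. Among the 12 dimmer members 1 was higher at 12 h and 3 at 24 h, against 8.69% and 9.70% of the 9982 dimmer genes. Over all 42 members, 6 were higher and 4 lower at 12 h after quantile normalization, against 12.0% and 16.2% of all genes. At 24 h 9 were higher and 2 lower, against 13.4% and 15.0% of all genes. The median log2 fold changes of the members were then 0.05 and 0.16, against -0.06 and 0.01 over all genes. With arrays centred on the median instead, 22 members were higher at 12 h and 26 at 24 h, while the median of all genes stood at 0.10 and 0.11 in place of -0.20 and -0.13, and the share of all genes called was 16.2% higher and 10.8% lower at 12 h, and 17.3% and 11.2% at 24 h. Of the 41 calls made for member genes, 11 kept call and direction under all 20 alternatives. They were Clcn7, Ctsc and Atp6v1d at 12 h, and Npc2, Lamp2, Gusb and Atp6v0a1 at both 12 and 24 h.

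**Figure D1:**
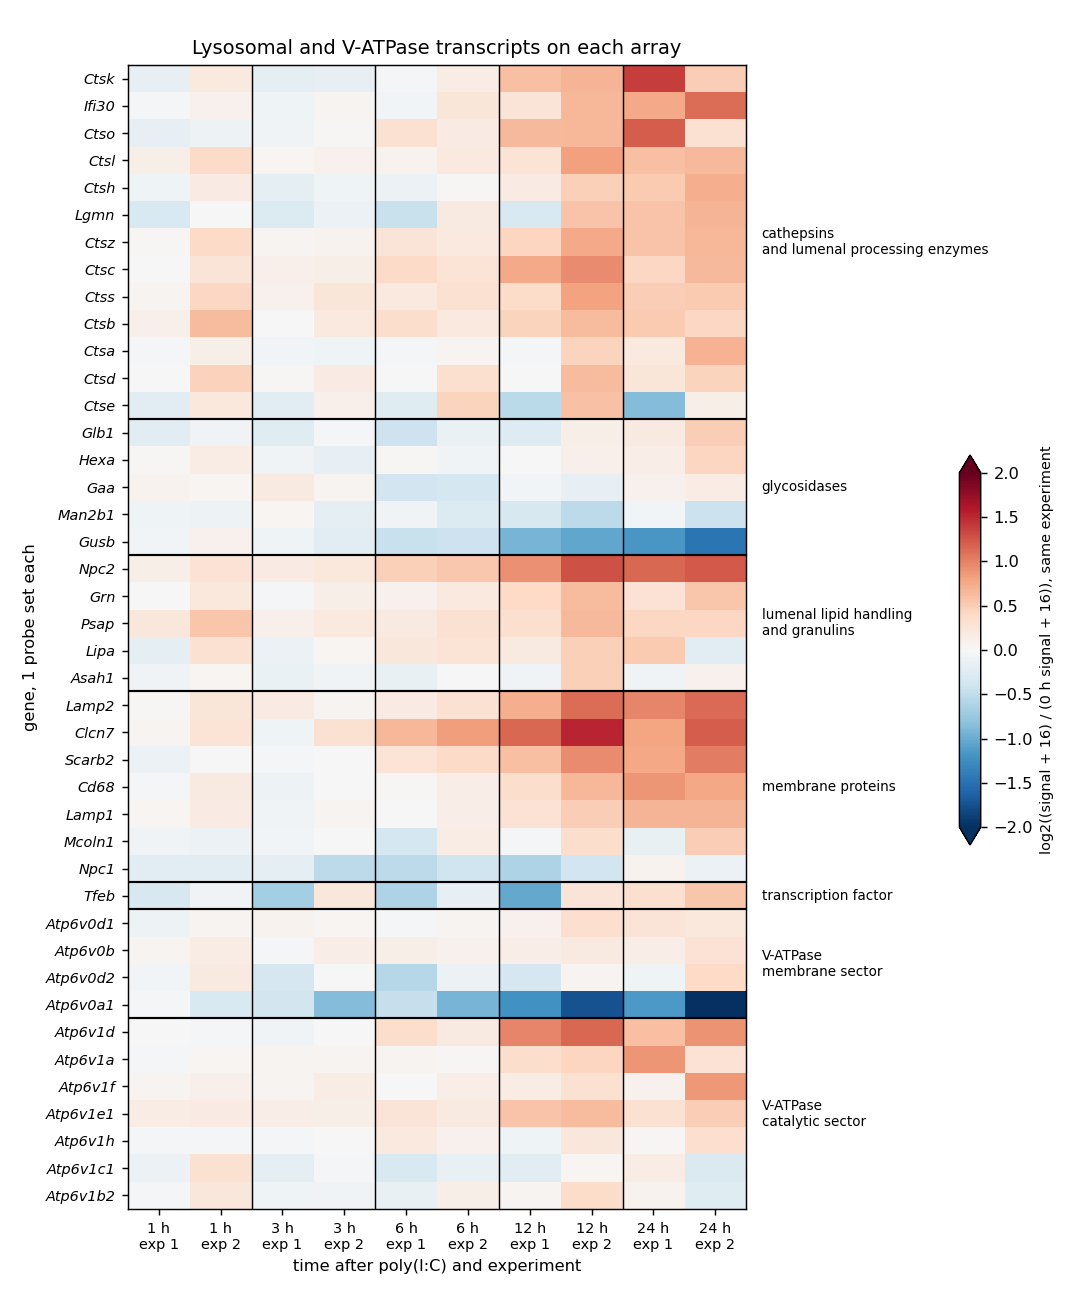
Each row is 1 of the 42 lysosomal and V-ATPase genes tested, grouped by role, and each column 1 array after poly(I:C). Colour gives the log2 ratio of signal plus 16 to that of its own experiment at 0 h, with values beyond 2 in either direction in the end colours; most rows redden at 12 and 24 h, while Gusb and Atp6v0a1 turn blue in both experiments.

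**Figure D2:**
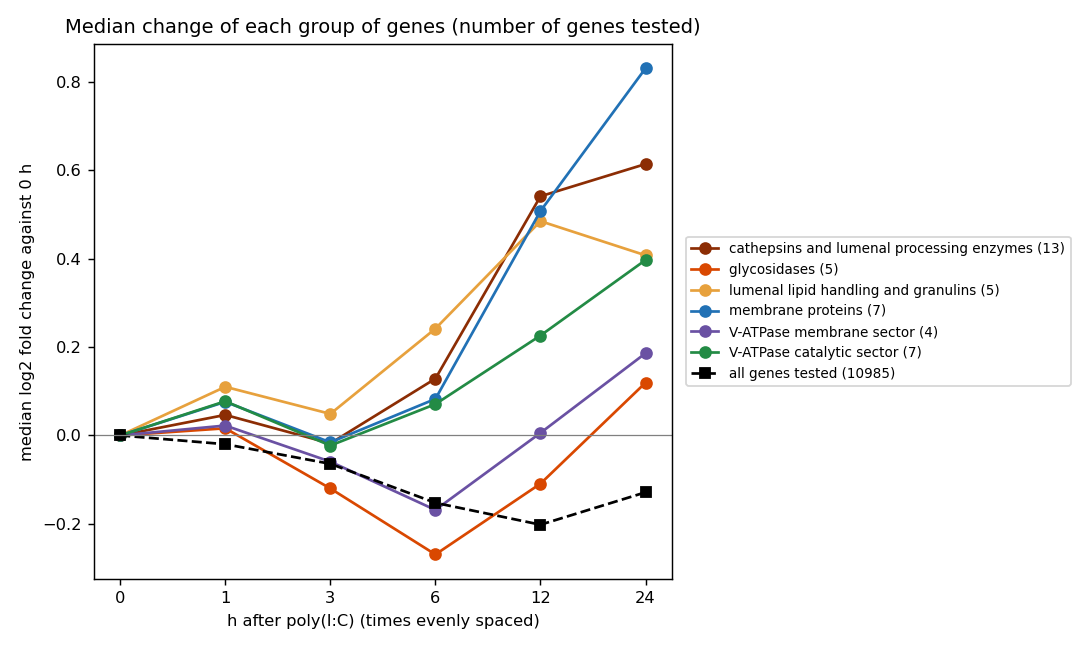
Lines give the median log2 fold change against 0 h of each role group (number of genes tested in brackets) and, dashed, of all 10985 genes, by hours after poly(I:C). Tfeb, alone in its group, is not drawn. Membrane proteins reached 0.83 and cathepsins 0.61 at 24 h, while all genes stood at -0.13.

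Promoters of the list were searched for motifs because the CLEAR element is the best known sequence shared by lysosomal genes. RefSeq promoters (build GRCm38.p6, 250 bases before to 50 after each start) matched 36 of the 45 genes. The palindrome TCACGTGA, the core of the CLEAR element, lay in the promoters of 7 of these 36 genes, against 1.12% of the 27025 genes in the table. The E-box CACGTG, which is contained in that core, lay in 14 of 36, against 8.09% of all genes. GAAANNGAA on either strand (N is any base), as found in interferon-stimulated response elements, lay in 5 of 36, against 9.76% of all genes. Such a match is a description of the letters, not a site in use. Shown here with 30 bases on each side, with the motif in capitals, are the 7 genes with the CLEAR core, and Ctss as an example of GAAANNGAA.
Clcn7 (chr17:25133367-25133434, plus strand): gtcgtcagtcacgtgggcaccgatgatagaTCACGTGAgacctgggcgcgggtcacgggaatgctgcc
Ifi30 (chr8:70766823-70766890, minus strand): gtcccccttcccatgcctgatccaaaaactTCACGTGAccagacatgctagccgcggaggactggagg
Atp6v1a (chr16:44139354-44139421, minus strand): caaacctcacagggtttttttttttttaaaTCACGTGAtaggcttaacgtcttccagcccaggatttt
Ctsa (chr2:164833730-164833814, plus strand): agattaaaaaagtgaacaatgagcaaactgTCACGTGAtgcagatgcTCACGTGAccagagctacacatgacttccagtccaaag
Ctsd (chr7:142387889-142387956, minus strand): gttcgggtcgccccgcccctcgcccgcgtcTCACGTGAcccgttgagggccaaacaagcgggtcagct
Atp6v0d1 (chr8:105566031-105566098, minus strand): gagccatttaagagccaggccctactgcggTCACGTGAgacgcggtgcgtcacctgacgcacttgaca
Mcoln1 (chr8:3500443-3500510, plus strand): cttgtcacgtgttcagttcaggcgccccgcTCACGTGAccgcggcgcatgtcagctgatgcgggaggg
Ctss (chr3:95526735-95526803, plus strand): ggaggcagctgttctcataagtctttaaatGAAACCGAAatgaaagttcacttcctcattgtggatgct
Of the 7 genes with the CLEAR core, Clcn7, Ifi30 and Atp6v1a were called higher at 1 or more times. Ctsa, Ctsd, Atp6v0d1 and Mcoln1 were not called at any time. Of the 29 genes with a promoter entry but without that core, 15 were called higher and 2 lower. Of the 5 genes with GAAANNGAA, Atp6v1d, Ctso, Ctss and Lamp1 were called higher, and Atp6v0c had no probe set of its own, while 14 of the 31 genes without that motif were called higher. Of the 14 genes with the E-box 5 were called higher, against 13 of the 22 without it. Cd63, Atp6v0c and Ctsf were not tested and so could not be called, yet they are counted in these groups. None of them has the CLEAR core, and Ctsf is among the 14 genes with the E-box. With so few genes, and motifs that overlap, these counts are a description only. The share of all genes called at 1 or more times, with or without a motif, was not counted. The position of the core differed between genes, from 197 bases before the start in Ifi30 to just after it in Clcn7, and Ctsa held it at a pair of places.

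Cathepsins were the largest group, and none of them was called lower. Of the 13 genes tested, 6 were higher at 12 h (Ctsb, Ctsc, Ctsl, Ctss, Ctsz and Ifi30) and 8 at 24 h (Ctsc, Ctsh, Ctsk, Ctsl, Ctso, Ctss, Ctsz and Ifi30), with median log2 fold changes of 0.54 and 0.61. Shares of all genes tested were 10.7% higher and 20.6% lower at 12 h, and 11.5% and 17.2% at 24 h. Ctsc encodes cathepsin C, the dipeptidyl peptidase that activates granule serine proteases. Ctsc signals over the 6 times from 0 h to 24 h were 14223, 14292, 15225, 18595, 24003 and 18934 in experiment 1. For Ctsc, experiment 2 gave 16291, 19575, 17717, 19735, 31491 and 25652. The 12 h arrays were the highest of their experiment, and both lay above both 0 h arrays. At 12 h the log2 fold change was 0.85 (SE 0.14, adjusted p = 0.00158), or 1.81-fold higher than at 0 h. At 24 h it was 0.53 (SE 0.14, adjusted p = 0.0171), a call lost without either 0 h array (0.59, adjusted p = 0.0615, and 0.47, adjusted p = 0.128). The other probe sets for Ctsc are much dimmer and went the other way: both were called lower at 24 h, by -1.28 (SE 0.27, adjusted p = 0.00665; signals 479 and 383.1 at 24 h against 831.2 and 1354 at 0 h) and by -1.45 (SE 0.40, adjusted p = 0.0218; signals 82.5 and 40.6 at 24 h against 138.2 and 253.9 at 0 h).

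Ifi30 encodes GILT, the interferon-inducible thiol reductase that opens disulfide bonds of antigens in the lysosome. Ifi30 signals over the 6 times from 0 h to 24 h were 12307, 12134, 11603, 11835, 14657 and 20734 in experiment 1. For Ifi30, experiment 2 gave 15624, 16553, 16162, 18436, 24788 and 33788. The 24 h arrays were the highest of their experiment and above both 0 h arrays, while the 12 h signal of experiment 1 lay between the 0 h signals. The 24 h level was 1.91-fold higher than that at 0 h, a log2 fold change of 0.93 (SE 0.14, adjusted p = 0.00122). The call at 12 h (0.46, SE 0.14, adjusted p = 0.0357) held under 5 of 20 alternatives only, with values of 0.16 to 0.76. Without the 0 h array of experiment 2 it was 0.33 (adjusted p = 0.259), and without the 12 h array of experiment 2 it was 0.34 (adjusted p = 0.22).

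Ctsk, the collagen-degrading cathepsin known from osteoclasts, and Ctso, a cysteine cathepsin found in many tissues, were called higher at 24 h alone. Ctsk signals over the 6 times from 0 h to 24 h were 2236, 1993, 1952, 2192, 3400.3 and 5864 in experiment 1. For Ctsk, experiment 2 gave 2459.7, 2821, 2186, 2738, 3958 and 3481. At 24 h the gap between the experiments was wide, with log2 ratios of 1.39 in experiment 1 and 0.50 in experiment 2. Ctsk was 1.92-fold higher at 24 h than at 0 h (log2 fold change 0.94, SE 0.26, adjusted p = 0.0219). Without the 24 h array of experiment 1 the value was 0.43 (adjusted p = 0.0542), and without the 0 h array of experiment 1 or 2 it was 0.92 and 0.97 (adjusted p = 0.113 and 0.107). Acp5, the acid phosphatase that marks osteoclasts, was higher at 24 h too (2.36, SE 0.29, adjusted p = 0.000353). But of the 7 osteoclast markers tested it was the only one called higher, and 1 was called lower, against 11.5% and 17.2% of all genes. Of these 7 markers 4 lay below 0, and their median was -0.25. Their part in the Ctsk value was not tested. Ctso signals over the 6 times from 0 h to 24 h were 1526, 1354, 1449, 1892, 2409 and 3560 in experiment 1. For Ctso, experiment 2 gave 1824, 1694, 1864, 2055, 2893 and 2245. Here as well the 24 h value was higher in experiment 1, and both 24 h arrays lay above both 0 h arrays. At 24 h the log2 fold change was 0.76 (SE 0.24, adjusted p = 0.0413), or 1.69-fold higher than at 0 h. The call was kept under 5 of 20 alternatives, with values of 0.29 (without the 24 h array of experiment 1) to 1.22.

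Among the remaining cathepsins, the called ones had modest changes. Ctsb (a carboxydipeptidase), Ctsl and Ctss (endopeptidases that cleave the invariant chain) and Ctsz (a carboxypeptidase) had log2 fold changes of 0.54 to 0.59 at 12 h. Ctsh (an aminopeptidase), Ctsl, Ctss and Ctsz had 0.50 to 0.63 at 24 h. Some further probe sets gave more, among them 1 for Ctsb with 0.85 at 24 h (adjusted p = 0.00872), where the one used was not called, and 1 for Ctsz with 0.86 (adjusted p = 0.00492). Ctss had signals of 34869 and 57073 at 12 h against 26913 and 32680 at 0 h in experiments 1 and 2. All of these calls, at 12 and at 24 h, were lost after quantile normalization and without the 0 h array of experiment 2. Ctsd and Ctse, the aspartic cathepsins D and E, Ctsa, the carboxypeptidase that protects beta-galactosidase and neuraminidase, and Lgmn, the asparaginyl endopeptidase, were not called. Their values at 24 h were 0.34, -0.38, 0.44 and 0.62, the last with an adjusted p of 0.0554. At 12 h the Lgmn ratios of the experiments were -0.31 and 0.57.

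**Figure D3:**
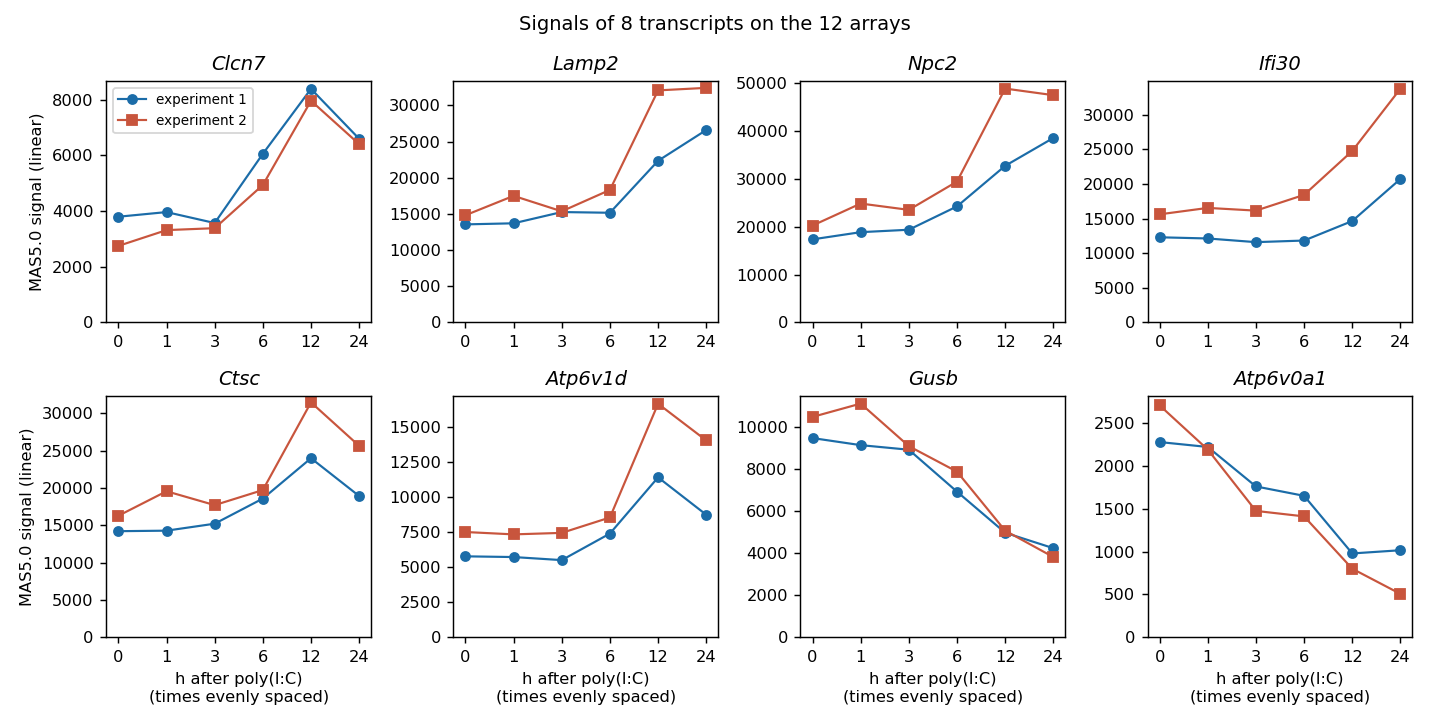
Each panel gives the MAS5.0 signal (linear, arbitrary units) of 1 gene by hours after poly(I:C), with circles for experiment 1 and squares for experiment 2, 1 array per point. Clcn7, Ctsc and Atp6v1d were highest at 12 h in both experiments, Ifi30 at 24 h, while Gusb and Atp6v0a1 lay lower at 12 and 24 h than at 0 h.

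Glycosidases, which cut sugars from glycoproteins, glycolipids and glycogen, held 5 members, of which none was called higher at any time. Gusb, the beta-glucuronidase, was lower at 12 and 24 h. That is 20.0% of the group, near the 20.6% and 17.2% of all genes tested. Gusb signals over the 6 times from 0 h to 24 h were 9451, 9116, 8898, 6909, 4959.8 and 4227 in experiment 1. For Gusb, experiment 2 gave 10455, 11087, 9068, 7858, 5058 and 3807. From 3 h on every array lay below both 0 h arrays. The 12 h level was 1.98-fold lower than that at 0 h, a log2 fold change of -0.99 (SE 0.15, adjusted p = 0.000999). Gusb was 2.47-fold lower at 24 h than at 0 h (log2 fold change -1.31, SE 0.15, adjusted p = 0.000218). The other probe set for Gusb was called lower as well, with -0.65 at 12 h (SE 0.16, adjusted p = 0.0144) and -0.95 at 24 h (SE 0.16, adjusted p = 0.00236). The other glycosidases were not called: Hexa (a subunit of hexosaminidase A), Glb1 (beta-galactosidase), Gaa (acid alpha-glucosidase) and Man2b1 (acid alpha-mannosidase) lay between -0.42 and 0.04 at 12 h and between -0.24 and 0.34 at 24 h.

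Among the lumenal proteins that handle lipids, 3 of 5 were higher at both 12 and 24 h: Npc2, Psap and Grn. None was lower. Of all genes tested, 10.7% and 11.5% were higher and 20.6% and 17.2% lower at these times. Calls for Psap and Grn were less stable than those for Npc2 at 12 and 24 h, which held under all 20 alternatives. Npc2 binds cholesterol in the lumen and passes it to NPC1. Npc2 signals over the 6 times from 0 h to 24 h were 17347, 18852, 19359, 24234, 32713 and 38534 in experiment 1. For Npc2, experiment 2 gave 20234, 24833, 23512, 29423, 48854 and 47476. From 6 h on every array lay above both 0 h arrays. At 6 h the log2 fold change was 0.51 (SE 0.13, adjusted p = 0.0471), or 1.42-fold higher than at 0 h. The 12 h level was 2.13-fold higher than that at 0 h, a log2 fold change of 1.09 (SE 0.13, adjusted p = 0.000258). Npc2 was 2.28-fold higher at 24 h than at 0 h (log2 fold change 1.19, SE 0.13, adjusted p = 0.000168). The call at 6 h was lost without either 0 h array (0.58, adjusted p = 0.18, and 0.44, adjusted p = 0.27) and without either 6 h array (0.47, adjusted p = 0.379, and 0.55, adjusted p = 0.165), and also without any 1 or 3 h array. The other 3 probe sets for Npc2 were called higher at 12 and 24 h as well, with log2 fold changes of 0.75 to 2.21 and 0.73 to 2.21.

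Psap, the precursor of the saposins that help glycosidases reach lipids, was higher at 12 and 24 h in the fit. Psap signals over the 6 times from 0 h to 24 h were 31196, 36377, 33512, 35408, 38941 and 41388 in experiment 1. For Psap, experiment 2 gave 37394, 54642, 42759.6, 46070.3, 58692 and 49609. In experiment 2 the 1 h signal was already above that at 24 h. At 12 h the log2 fold change was 0.49 (SE 0.13, adjusted p = 0.0203), or 1.40-fold higher than at 0 h. After quantile normalization the values turned to -0.04 at 12 h and -0.05 at 24 h, and without the 0 h or the 12 h array of experiment 2 that at 12 h was 0.40 (adjusted p = 0.149) and 0.37 (adjusted p = 0.147). The Psap call at 24 h (0.41, SE 0.13, adjusted p = 0.0428) held under 6 of 20 alternatives and was lost without the 0 h array of experiment 2 (0.32, adjusted p = 0.252). Grn encodes progranulin, which is cut into granulins in the lysosome, and its probe set is of a kind that can also bind other transcripts. Grn signals over the 6 times from 0 h to 24 h were 18021, 18076, 17803, 19049, 23643 and 22128 in experiment 1. For Grn, experiment 2 gave 24045, 27929, 26043, 27465, 37348 and 35252. The 12 h signal of experiment 1 lay just below the 0 h signal of experiment 2, so the groups overlapped. The 12 h level was 1.43-fold higher than that at 0 h, a log2 fold change of 0.51 (SE 0.12, adjusted p = 0.0119). Without the 0 h array of experiment 2 it was 0.42 (adjusted p = 0.112), without the 12 h array of experiment 2 it was 0.46 (adjusted p = 0.0795), and after quantile normalization 0.16 (adjusted p = 0.266). The Grn call at 24 h (0.42, SE 0.12, adjusted p = 0.0287) held under 8 of 20 alternatives, and it too was lost when that 0 h array was left out (0.33, adjusted p = 0.213). The 2 further probe sets for Grn were called higher at both times, up to 0.97 at 24 h. Lipa (lysosomal acid lipase) and Asah1 (acid ceramidase) were not called, and at 24 h the Lipa ratio was 0.52 in experiment 1 and -0.21 in experiment 2.

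Membrane proteins had the largest share of calls among the role groups, 5 of 7 higher at both 12 and 24 h and none lower. Shares of all genes tested were 10.7% higher and 20.6% lower at 12 h, and 11.5% and 17.2% at 24 h. The median log2 fold changes of the group were 0.51 and 0.83. Clcn7, the exchanger of chloride and protons that balances the charge moved by the pump, was called from 6 h on. Clcn7 signals over the 6 times from 0 h to 24 h were 3795, 3961, 3569, 6054, 8385 and 6593 in experiment 1. For Clcn7, experiment 2 gave 2747, 3314, 3383, 4934, 7959 and 6401. From 6 h on all arrays lay above both 0 h arrays. Clcn7 was 1.69-fold higher at 6 h than at 0 h (log2 fold change 0.76, SE 0.16, adjusted p = 0.0195). At 12 h the log2 fold change was 1.34 (SE 0.16, adjusted p = 0.000243), or 2.52-fold higher than at 0 h. The 24 h level was 2.01-fold higher than that at 0 h, a log2 fold change of 1.01 (SE 0.16, adjusted p = 0.00132). The call at 6 h was lost without either 0 h array (0.91, adjusted p = 0.0614, and 0.60, adjusted p = 0.193) and without either 6 h array (0.70, adjusted p = 0.233, and 0.81, adjusted p = 0.0926). A further probe set followed it (0.86, 1.43 and 0.98 at 6, 12 and 24 h, all called), and the remaining, dimmer one was not called, with values of 0.09, 0.28 and -0.08.

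Lamp2 encodes a heavily glycosylated protein of the limiting membrane, needed for chaperone-mediated autophagy. Lamp2 signals over the 6 times from 0 h to 24 h were 13548, 13697, 15252, 15153, 22338 and 26589.6 in experiment 1. For Lamp2, experiment 2 gave 14811, 17489, 15354, 18310.2, 32068 and 32417. All 12 and 24 h arrays lay above both 0 h arrays. Lamp2 was 1.89-fold higher at 12 h than at 0 h (log2 fold change 0.92, SE 0.15, adjusted p = 0.00142). At 24 h the log2 fold change was 1.05 (SE 0.15, adjusted p = 0.000713), or 2.07-fold higher than at 0 h. All 4 probe sets for Lamp2 were called higher at both times, with log2 fold changes up to 1.83 at 24 h. Scarb2 encodes LIMP-2, which carries glucocerebrosidase to lysosomes. Scarb2 signals over the 6 times from 0 h to 24 h were 3203, 2956, 3127, 3856, 4849 and 5477 in experiment 1. For Scarb2, experiment 2 gave 2688, 2668, 2694, 3518, 5163 and 5452. Here, too, the 12 and 24 h arrays stood clear of the 0 h arrays. The 24 h level was 1.86-fold higher than that at 0 h, a log2 fold change of 0.89 (SE 0.15, adjusted p = 0.00207). The second probe set for Scarb2 was not called, with 0.27 at 12 h and -0.56 at 24 h, where its signals were 3112 and 1068, against 2417 and 3028 at 0 h.

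Cd68 is a lysosomal glycoprotein much used as a marker of macrophages. Cd68 signals over the 6 times from 0 h to 24 h were 11906, 11633, 11101, 12165, 15150.3 and 21961 in experiment 1. For Cd68, experiment 2 gave 20989, 23875, 21204, 23039.7, 33371 and 36043. Experiment 2 was brighter throughout, and within each experiment the 24 h array was the highest. Cd68 was 1.78-fold higher at 24 h than at 0 h (log2 fold change 0.83, SE 0.14, adjusted p = 0.00191). Within the experiments the log2 ratio at 24 h was 0.88 and 0.78, and with no term for the experiment the adjusted p was 0.377. Lamp1, the close relative of Lamp2, was higher by 0.39 at 12 h (SE 0.12, adjusted p = 0.0392) and by 0.67 at 24 h (SE 0.12, adjusted p = 0.00313). The call for Lamp1 at 12 h held under 5 of 20 alternatives. Npc1, the membrane partner of NPC2, and Mcoln1, a calcium channel of the lysosome, were not called, with -0.50 and 0.17 at 12 h and -0.02 and 0.17 at 24 h.

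Tfeb itself was not called at any time. Tfeb signals over the 6 times from 0 h to 24 h were 590.4, 469.4, 362.1, 380.7, 282.8 and 738.1 in experiment 1. For Tfeb, experiment 2 gave 457.7, 436.8, 537, 405, 550.5 and 683.2. At 12 h the experiments went opposite ways, with log2 ratios of -1.02 and 0.26, and at 24 h both arrays were above both 0 h arrays. The fitted values were -0.38 at 12 h (SE 0.30, adjusted p = 0.376) and 0.44 at 24 h (SE 0.30, adjusted p = 0.31). Of 10 other MiT factors and regulators, 1 was higher (Rragc) and 2 lower (Tfec and Rraga) at 12 h, and none higher and the same 2 lower at 24 h, with medians of -0.43 and -0.16. The shares at 12 h, 10.0% higher and 20.0% lower, were near the 10.7% and 20.6% of all genes, and that lower at 24 h was near 17.2%. Tfec, a MiT factor of myeloid cells, had signals of 2458 and 3743 at 24 h against 5494 and 7125 at 0 h, a log2 fold change of -1.04 (SE 0.20, adjusted p = 0.00447). Rraga, the GTPase RagA that holds mTORC1 at the lysosome, had 482.9 and 941.3 at 24 h against 1010 and 1687 at 0 h (-0.94, SE 0.18, adjusted p = 0.00463). For both genes the 24 h arrays lay below both 0 h arrays.

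In the proton pump, 3 subunits of the catalytic sector were called higher and 1 subunit of the membrane sector lower. Of the 7 genes of the catalytic sector 2 were higher at 12 h and 3 at 24 h, and none was lower. Among all genes tested, 10.7% and 11.5% were higher and 20.6% and 17.2% lower at these times. Atp6v1d encodes subunit D of the central stalk that turns in the pump. Atp6v1d signals over the 6 times from 0 h to 24 h were 5776, 5726, 5507, 7402, 11410.3 and 8743 in experiment 1. For Atp6v1d, experiment 2 gave 7511, 7343, 7449.9, 8548, 16664 and 14045. Both 12 h arrays and both 24 h arrays lay above both 0 h arrays. At 12 h the log2 fold change was 1.06 (SE 0.15, adjusted p = 0.000702), or 2.09-fold higher than at 0 h. The 24 h level was 1.68-fold higher than that at 0 h, a log2 fold change of 0.75 (SE 0.15, adjusted p = 0.00502). Without the 0 h array of experiment 2 the 24 h value was 0.72 (adjusted p = 0.0509). The other 2 probe sets for Atp6v1d were higher at 12 h, by 0.65 and 1.07, and 1 of them also at 24 h. Atp6v1e1 encodes subunit E of the peripheral stalks. Atp6v1e1 signals over the 6 times from 0 h to 24 h were 10797, 11917, 11833, 12844, 15981 and 13271 in experiment 1. For Atp6v1e1, experiment 2 gave 15794, 17729, 17221, 17806, 24572 and 22294. At 24 h the signal of experiment 1 lay between the 0 h signals, and at 12 h both arrays were above them. Atp6v1e1 was 1.52-fold higher at 12 h than at 0 h (log2 fold change 0.60, SE 0.13, adjusted p = 0.00639). This call was lost without the 0 h array of experiment 2 (0.58, adjusted p = 0.0541), and the call at 24 h (0.40, SE 0.13, adjusted p = 0.0415) held under 4 of 20 alternatives, with values of 0.10 to 0.64. Of the further probe sets for Atp6v1e1 that were tested, none was called, and the one used is of a kind that can bind several transcripts.

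Atp6v1a encodes subunit A, which holds the catalytic site for ATP. Atp6v1a signals over the 6 times from 0 h to 24 h were 8314, 8158, 8629, 8604, 10653 and 15278 in experiment 1. For Atp6v1a, experiment 2 gave 11765, 12131, 12250.1, 11909, 15784 and 14375. At 24 h both arrays were above both 0 h arrays. At 24 h the log2 fold change was 0.58 (SE 0.17, adjusted p = 0.0321), or 1.50-fold higher than at 0 h. Most of that value came from experiment 1, where the ratio was 0.88 against 0.29 in experiment 2. Left without its 24 h array of experiment 1, the fit gave 0.28 (adjusted p = 0.0958). The second probe set for Atp6v1a was not called (0.47 at 24 h). Atp6v1b2, the other ATP-binding subunit, and Atp6v1c1, Atp6v1f and Atp6v1h were not called, with -0.09 to 0.23 at 12 h and -0.08 to 0.48 at 24 h.

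The membrane sector had 1 of 4 genes tested called lower (25.0%), against 20.6% and 17.2% of all genes at 12 and 24 h. That gene was Atp6v0a1. It encodes isoform a1 of subunit a, the subunit that forms the proton path and directs the pump to its membrane. Atp6v0a1 signals over the 6 times from 0 h to 24 h were 2276, 2219, 1759, 1649, 977.3 and 1015 in experiment 1. For Atp6v0a1, experiment 2 gave 2704, 2188, 1473, 1409, 799.4 and 505.9. In both experiments signals were below the 0 h arrays from 3 h on, and lowest at 12 or 24 h. The 12 h level was 2.77-fold lower than that at 0 h, a log2 fold change of -1.47 (SE 0.25, adjusted p = 0.00225). Atp6v0a1 was 3.40-fold lower at 24 h than at 0 h (log2 fold change -1.77, SE 0.25, adjusted p = 0.000869). Of the other 3 probe sets for Atp6v0a1, 2 were called lower at both times (-1.25 and -1.34 at 12 h, -1.65 and -1.92 at 24 h), and the remaining, dim one was not called (0.45 and 0.76). Tcirg1, which encodes isoform a3 of the same subunit and is known from osteoclasts and macrophages, went the opposite way. Its 12 h signals were 9968 and 8134 and its 24 h signals 9597 and 10123, all above the 5716 and 5980 measured at 0 h. The log2 fold change was 0.62 at 12 h (SE 0.15, adjusted p = 0.011) and 0.75 at 24 h (SE 0.15, adjusted p = 0.00453). Atp6v0a2, isoform a2, was not called. Atp6v0b, Atp6v0d1 and Atp6v0d2, other subunits of the sector, were not called either, with -0.14 to 0.22 at 12 h and 0.16 to 0.23 at 24 h. Of 8 other pump subunits and accessory proteins tested, 3 were higher at 12 h (Tcirg1, Atp6v0e and Atp6ap2). At 24 h 2 were higher (Tcirg1 and Atp6v0e), and none was lower at either time. All genes were called higher in shares of 10.7% and 11.5% and lower in shares of 20.6% and 17.2%. Atp6v0e, a small subunit of the membrane sector, had signals of 17480 and 23354 at 24 h against 13017 and 15344 at 0 h (0.52, SE 0.14, adjusted p = 0.0184).

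**Figure D4:**
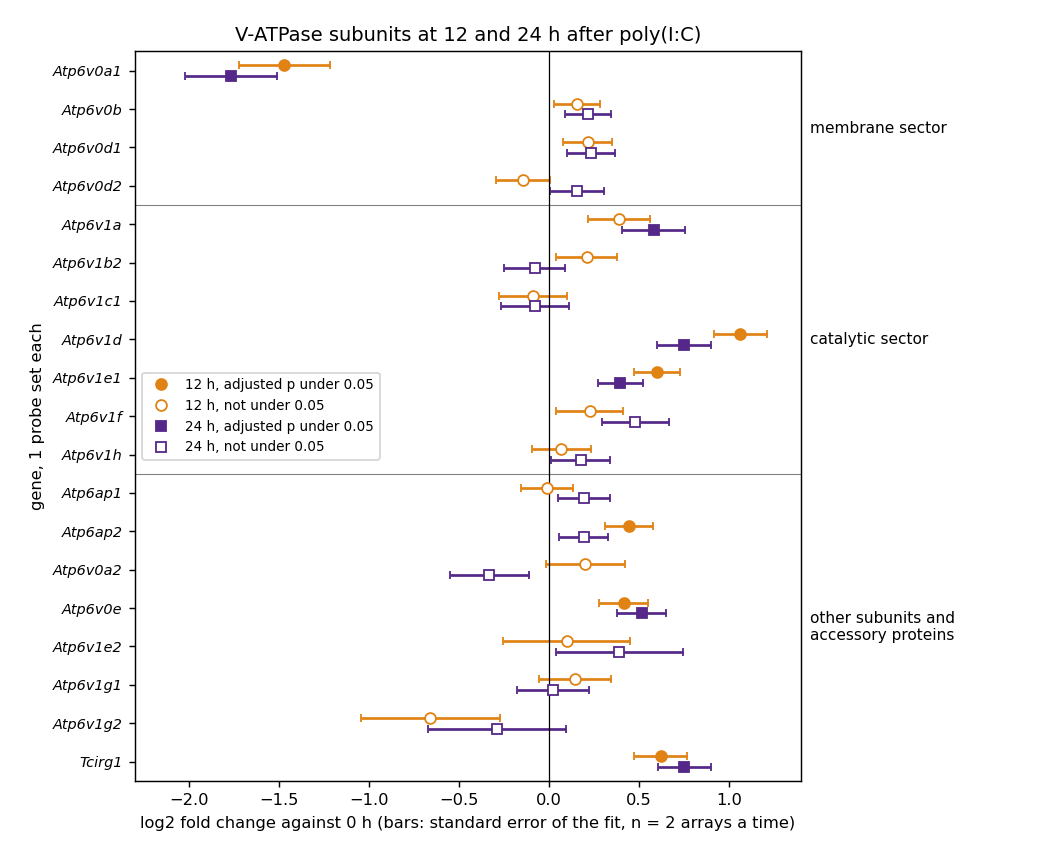
Points give the log2 fold change against 0 h of V-ATPase subunits at 12 h (circles) and 24 h (squares), with the standard error of the fit as bars, and filled symbols mark an adjusted p under 0.05. Atp6v0a1 (isoform a1 of subunit a) stood at -1.47 and -1.77, Tcirg1 (isoform a3) at 0.62 and 0.75.

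Lysosomal genes outside the list were called in both directions, more often higher than lower. In all, 66 genes of 6 further lists were tested: 18 were higher (27.3%) and 7 lower (10.6%) at 12 h. At 24 h 17 were higher (25.8%) and 6 lower (9.09%). Shares of all genes tested were 10.7% higher and 20.6% lower at 12 h, and 11.5% and 17.2% at 24 h. Genes named only in brackets here and for the regulators of TFEB and the inhibitors were chosen after their values were seen. Over all 66 the median was 0.14 at 12 h and 0.19 at 24 h. Of 20 other hydrolases and cofactors, 4 were higher and 2 lower at 12 h with a median of 0.02, and 7 were higher and 1 lower (Manba) at 24 h with a median of 0.44. Gla (alpha-galactosidase A) had signals of 8158 and 14287 at 24 h against 3453 and 4255 at 0 h, a log2 fold change of 1.49 (SE 0.17, adjusted p = 0.000207). Naglu, which takes N-acetylglucosamine off heparan sulfate, had 2505 and 3744 at 24 h against 1061 and 1467 at 0 h (1.28, SE 0.19, adjusted p = 0.00119). In both, the 24 h arrays stood clear of the 0 h arrays.

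Of 14 other lysosomal membrane proteins, 6 were higher and 1 lower (Ctns) at 12 h, and 5 were higher and none lower at 24 h. That is 42.9% higher and 7.14% lower at 12 h, against 10.7% and 20.6% of all genes. At 24 h it is 35.7% higher, against 11.5%, where 17.2% of all genes were lower. Slc29a3, a nucleoside transporter, had signals of 7671 and 4754 at 24 h against 2005 and 2110 at 0 h (1.55, SE 0.19, adjusted p = 0.000357). Slc15a3, a transporter of histidine and small peptides, had 22899 and 16562 at 24 h against 9735 and 8245 at 0 h (1.12, SE 0.16, adjusted p = 0.000848). Both transporters were also higher at 12 h, by 1.00 and 1.09. For sorting to lysosomes the shares called were near those of all genes. Of 9 genes, 1 was higher (M6pr, the cation-dependent mannose 6-phosphate receptor) and 2 were lower at both times, or 11.1% and 22.2%, against 10.7% and 20.6% of all genes at 12 h and 11.5% and 17.2% at 24 h. The lower ones were receptors that carry hydrolases from the Golgi: Igf2r, the cation-independent mannose 6-phosphate receptor, had 778.1 and 801.9 at 24 h against 1955 and 1902 at 0 h (-1.27, SE 0.18, adjusted p = 0.000806). Sort1, sortilin, had 389.3 and 588.2 against 814.1 and 1205 at 0 h (-1.02, SE 0.18, adjusted p = 0.00269).

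Cathepsin inhibitors held the greatest log2 fold change of any gene named here. Of 5 tested, 3 were higher (Cst7, Cst3 and Cstb) and none lower at 12 h, against 10.7% and 20.6% of all genes. At 24 h 2 were higher (Cst7 and Cst3) and 1 lower (Stfa3), against 11.5% and 17.2% of all genes. Cst7 encodes cystatin F, which inhibits cathepsin C among others and is known from cytotoxic and myeloid cells. The arrays gave 8112 and 4732 for it at 12 h and 13448 and 7062 at 24 h, all above the 731.6 and 357.2 of 0 h. The log2 fold change was 3.56 at 12 h (SE 0.19, adjusted p = 1.11e-06) and 4.21 at 24 h (SE 0.19, adjusted p = 5.07e-07). Cst3 encodes cystatin C, a secreted inhibitor. It had signals of 28152 and 27110 at 24 h against 16555 and 16830 at 0 h (0.73, SE 0.12, adjusted p = 0.00188).

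Between 24 h and 12 h no member was called in either direction, against 2.57% of all genes higher and 2.21% lower. At an unadjusted p under 0.05, 8 of 42 members were higher and 1 lower at 24 h, where 15.0% of all genes were higher and 9.55% lower, so the count of higher members was near the background. The values lay between -0.40 (Ctse) and 0.82 (Tfeb, SE 0.30, adjusted p = 0.144). Ifi30 was the closest to a call, with 0.47 (SE 0.14, adjusted p = 0.0912). The count depended on the 24 h arrays: without that of experiment 1, 2 members were higher and 4 lower, and without that of experiment 2, 4 were higher.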

How the data were processed

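Transcript levels were measured on 12 Affymetrix mouse genome arrays, for 6 times from 0 h to 24 h after poly(I:C) in 2 experiments. The authors computed MAS5.0 signals, and the deposited intensity values are linear, scaled per array to a mean of 500 once the highest and lowest 2% of signals are set aside. No image files and no detection calls were used here. Of 45101 probe sets, 64 controls were left out. Of the other 45037, 34945 have 1 gene name in the platform annotation, 932 have several, and the rest have none.

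A linear model of log2(intensity + 16) was fitted in limma 3.58.1 (R 4.3.3) to all 12 arrays, with terms for time and experiment and an intensity trend in empirical Bayes (5 residual and 5.24 prior degrees of freedom). Fold changes are on that scale, which understates those of low signals. The 22519 probe sets with a mean signal at or above the median of 78.4 were tested, and p was adjusted by Benjamini-Hochberg at 0.05 over all of them. A gene is represented by the probe set of highest mean signal among those that name it alone. The script was checked on simulated data. For 12 h against 0 h, 44 of 297 simulated 2-fold changes (14.8%) and 200 of 291 simulated 4-fold changes (68.7%) were called. Far fewer probe sets were changed there than were called in these data, and recovery depends on that number. A gene not called may still have changed.

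The experiment served as the replicate block because each experiment used 1 mouse. Arrays of 1 experiment deviated together from the time means, with r between 0.256 and 0.66 and a median of 0.573 for 15 pairs. All comparisons with 0 h share its 2 arrays, so overlaps between times were not tested. The replicates are the 2 mice, and by the study's methods their experiments lay several months apart, with hybridization and normalization done separately. The term for the experiment removes the constant difference between the experiments. Each p sets a change against how far changes over time differed between the experiments, pooled over all times and moderated by other probe sets. That spread holds differences of mouse, run and array together.

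The members and all gene lists were chosen with earlier results of these data known. Members given in full are, in each role group, up to 4 called genes with the greatest change at their own extreme time, and Tfeb. From each further list, up to 2 called genes with the smallest adjusted p at 12 or 24 h are given. Alternatives changed the pseudocount, the filter, the scaling, the trend, the block and the set of arrays. Motif searches and figures used Python 3.11.15, numpy 2.4.6, pandas 2.3.3 and matplotlib 3.10.9, and promoter sequences came from RefSeq.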

Additional observations from a re-analysis of the deposited data

How the results depend on the processing

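The counts of members called and the 41 calls made for member genes were recomputed under 20 alternatives, of which 12 left out 1 array each. Calls for genes of the further lists, for markers and for further probe sets of a member were not compared in this way. A pseudocount of 1 and arrays centred on the median changed none of the 41 calls made for member genes. A filter at the 75th percentile kept these calls too, gave 4 members lower at 12 h and 21 higher at 24 h, and moved no other count. With no replicate block, which ignores the pairing by mouse, members higher numbered 0 at 6 h, 6 at 12 h and 4 at 24 h. With no filter they numbered 1, 7 and 12, and with no trend 0, 7 and 11. After quantile normalization 6 members were higher at 12 h and 9 at 24 h, while 1 was lower at 6 h and 4 at 12 h, and Psap turned to -0.0425 at 12 h and -0.0469 at 24 h. With only the 4 arrays of a comparison, members lower numbered 1 at 3 h and 2 at 6 h, and members higher 9 at 12 h and 2 at 24 h. Leaving out each array in turn gave 0 to 2 members higher and 0 to 2 lower at 6 h, 5 to 20 higher and 2 to 4 lower at 12 h, 7 to 20 higher at 24 h, and 0 to 4 higher and 0 to 4 lower between 24 and 12 h. The lowest counts at 12 and 24 h came without the 0 h array of experiment 2. The cause of these shifts was not tested. The filter, trend and block act on the estimate of spread and on how many probe sets share the adjustment, and the pool of arrays sets the residual degrees of freedom. No count behind the signals is known, so the number of arrays limits what could be detected.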

Other observations

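Man2b1, the acid alpha-mannosidase, had a second, dimmer probe set whose time course differed from the one used above. Over the 6 times from 0 h to 24 h its signals were 1115, 988.3, 468.3, 438.4, 332 and 841.4 in experiment 1. Those of experiment 2 were 730.2, 578.1, 406.3, 354.8, 274.9 and 810.4. It was called lower at 6 h (-1.16, SE 0.22, adjusted p = 0.012) and at 12 h (-1.53, SE 0.22, adjusted p = 0.000776), and higher at 24 h than at 12 h (1.40, SE 0.22, adjusted p = 0.0123). The probe set used for Man2b1 was called at none of these times. Which transcripts either one measures was not tested.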
